A study of Mus musculus with 24 samples.

Results

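Fatty acid beta-oxidation enzymes were followed in mouse embryonic stem cells (mESCs) by selecting 10 genes by symbol from a table of 23762 genes: Cpt1a, Cpt2, Acadvl, Acadl, Acadm, Acads, Hadha, Hadhb, Acaa2 and Etfdh. All 10 had a row and all 10 passed the filter on low counts, which 16067 genes passed. The 24 libraries came from 1 line, ES-E14TG2a, as 6 groups of 4. Cells labelled EPI, called EpiLC here, had spent 48 hr in FGF2 and activin A on fibronectin with 0.5 mM succinylacetone (SA) and 10 μM hemin (EpiLC+SA+H), with SA alone (EpiLC+SA) or with neither (EpiLC). Naive cells were kept on gelatin in N2B27 medium with LIF, the GSK3 inhibitor CHIR99021 and the MEK inhibitor PD0325901 (2iL), again with SA and hemin (2iL+SA+H), with SA (2iL+SA) or untreated (2iL). SA inhibits ALAD, an enzyme of heme synthesis, and hemin supplies heme from outside. The study asked whether heme synthesis is needed to leave the naive state, and for the enzymes described here the question is whether their mRNA differed with SA, with hemin and with the medium. The sources used here do not say whether the 4 libraries of a group were grown as separate cultures, and each p value therefore reflects variation among libraries that may be technical.

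Beta-oxidation shortens fatty acids inside mitochondria and hands electrons to the respiratory chain. A long-chain acyl group enters as a carnitine ester, is oxidised by an acyl-CoA dehydrogenase that fits its chain length, is hydrated and oxidised again, and is cleaved by a thiolase that releases acetyl-CoA. Electrons taken by the dehydrogenases pass through a flavoprotein and its oxidoreductase to ubiquinone, and the respiratory complexes downstream carry heme. Malonyl-CoA, the building block of fatty acid synthesis, inhibits entry at the first step.

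Promoter windows were taken from RefSeq for 9 of the 10 genes, each with 250 bases before and 50 bases after the annotated start, on GRCm38.p6. Hadha and Hadhb encode the alpha and beta subunits of the mitochondrial trifunctional protein. They lie head to head, with 273 bases between their annotated starts in RefSeq. Gene positions given below are from GENCODE, where starts can differ from those of these windows, as for Hadha and Cpt1a. The Hadha window, chr5:30154931-30155230 on the minus strand, is shown because the genes share 228 bases of it with the Hadhb window (chr5:30155003-30155302, plus strand), given in capitals.
Hadha: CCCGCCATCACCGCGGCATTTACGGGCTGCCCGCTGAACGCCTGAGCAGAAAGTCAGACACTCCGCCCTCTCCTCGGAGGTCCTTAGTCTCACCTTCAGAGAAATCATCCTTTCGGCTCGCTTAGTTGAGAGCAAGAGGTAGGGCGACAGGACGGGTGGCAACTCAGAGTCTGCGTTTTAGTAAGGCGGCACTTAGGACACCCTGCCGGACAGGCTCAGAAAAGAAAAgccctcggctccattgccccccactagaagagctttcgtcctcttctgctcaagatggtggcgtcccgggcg
Cpt1a (chr19:3323051-3323350, plus strand) and Acadm (chr3:153944594-153944893, minus strand) are shown because both were lower in each of the 3 groups in EpiLC medium, and Acadvl (chr11:70015379-70015678, minus strand) because it had the largest change with SA among the 10 in that medium. Capitals in these mark a match to 1 of the motifs searched on both strands.
Cpt1a: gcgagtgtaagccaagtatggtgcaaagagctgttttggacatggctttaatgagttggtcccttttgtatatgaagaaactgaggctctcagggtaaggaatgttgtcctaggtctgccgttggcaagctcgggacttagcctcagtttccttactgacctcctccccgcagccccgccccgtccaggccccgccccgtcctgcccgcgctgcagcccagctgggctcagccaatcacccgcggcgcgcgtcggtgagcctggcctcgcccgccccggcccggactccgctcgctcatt
Acadm: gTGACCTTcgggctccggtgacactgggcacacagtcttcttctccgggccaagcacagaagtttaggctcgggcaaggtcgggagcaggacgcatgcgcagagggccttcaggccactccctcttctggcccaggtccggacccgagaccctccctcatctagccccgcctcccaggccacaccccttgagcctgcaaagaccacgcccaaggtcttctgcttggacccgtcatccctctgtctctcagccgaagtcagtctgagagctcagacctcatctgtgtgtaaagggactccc
Acadvl: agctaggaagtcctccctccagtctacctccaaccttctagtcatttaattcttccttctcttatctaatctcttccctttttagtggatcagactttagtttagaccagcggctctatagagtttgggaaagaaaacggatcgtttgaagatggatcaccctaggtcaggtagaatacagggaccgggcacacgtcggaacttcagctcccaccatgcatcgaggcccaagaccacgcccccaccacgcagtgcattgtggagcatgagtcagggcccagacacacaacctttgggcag
The motifs were AAGGTCA, a half-site of estrogen-related receptors, its longer form TCAAGGTCA, which contains it, AGGTCANAGGTCA, a direct repeat bound by PPAR-RXR dimers, and CACGTG, the E-box. Of the 9 windows, 1 held AAGGTCA (Acadm, read on the opposite strand as TGACCTT), which 4.72% of 32851 windows of this length hold. None of the 9 held TCAAGGTCA, AGGTCANAGGTCA or CACGTG, found in 0.423%, 0.0396% and 7.15% of all windows. A match here is a description of these letters and not a binding site.

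Total counts per library ran from 1857964 to 9069538. Of the 24 libraries, 3 were shallow, namely EpiLC+SA+H replicate 1 (2131987 counts), EpiLC replicate 3 (2883740) and 2iL+SA replicate 3 (1857964), and all others held at least 4698873. These 3 also stood apart in the enzymes themselves. Acads was highest there, at 112, 135 and 179 CPM (read counts scaled to library size, TMM), against 52.8 to 59.3, 51.4 to 55.3 and 45.1 to 68.7 CPM in the other libraries of the same groups. Hadhb was at its lowest there in EpiLC and 2iL+SA (3.48 and 4.40 CPM, from 9 and 8 reads). Several results that rest on these libraries are therefore given with and without them below, and others over runs that left out 1 library. Naive markers summed to 427 to 1156 CPM in EpiLC+SA+H, 604 to 1050 CPM in EpiLC+SA, 95.6 to 573 CPM in EpiLC and 2675 to 3773 CPM in the 3 groups in 2iL. Primed markers summed to 1282 to 3600 CPM in EpiLC+SA+H, 872 to 1660 CPM in EpiLC+SA, 2735 to 3943 CPM in EpiLC and 88.4 to 154 CPM in the 3 groups in 2iL. Both lists thus separated the groups in EpiLC medium from those in 2iL. In EpiLC+SA against EpiLC, 7 of 7 primed markers were lower and 4 of 7 naive markers higher at an edgeR adjusted p under 0.05. The enzymes with SA are therefore compared between cells that also differ in these markers. Pou5f1, Sox2 and Nanog together were at 801 to 1107 CPM in EpiLC+SA+H, 290 to 616 CPM in EpiLC+SA, 284 to 1090 CPM in EpiLC and at least 1037 CPM in 2iL. Primitive endoderm, trophectoderm and mesoderm lists summed to at most 66.3 CPM in any library, and fibroblast markers, with Postn and Dcn at 0 in the naive groups, to 9.78 to 17.7 CPM in EpiLC+SA, against 1.94 to 14.9 CPM in EpiLC. Their part in the results was not tested. In bulk RNA, fewer cells of a kind and less RNA per cell cannot be told apart.

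In EpiLC medium with SA, Acadvl, Hadhb and Acaa2 rose and Cpt2 fell, while 6 of the 10 enzymes did not pass the test. So 3 of 10 were higher and 1 lower in EpiLC+SA against EpiLC, where 12.1% and 15.8% of all genes tested were called higher and lower. Hemin on top of SA gave 1 higher (Cpt2) and 3 lower (Acadvl, Hadha and Acaa2), where 10.5% and 5.95% of genes were called. Without treatment, EpiLC against 2iL gave 1 higher (Acadl) and 3 lower (Cpt1a, Acadm and Acaa2), where 15% and 13.4% were called. Cells in EpiLC medium also differed from those in 2iL in coating, seeding density and naive and primed markers. A difference between the media therefore cannot be assigned to the medium alone. Here called means a Benjamini-Hochberg adjusted p under 0.05 over all genes in edgeR's quasi-likelihood test. None of the 10 was called with SA in 2iL. The comparisons with SA and with hemin share the EpiLC+SA libraries, so a library that is high or low in that group moves both, in opposite directions. The same holds for EpiLC against 2iL and EpiLC+SA against EpiLC, which share the EpiLC libraries. Counts come from the 3' ends of transcripts and are not scaled to length, so CPM is compared between groups for 1 gene and not between genes.

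**Figure D1:**
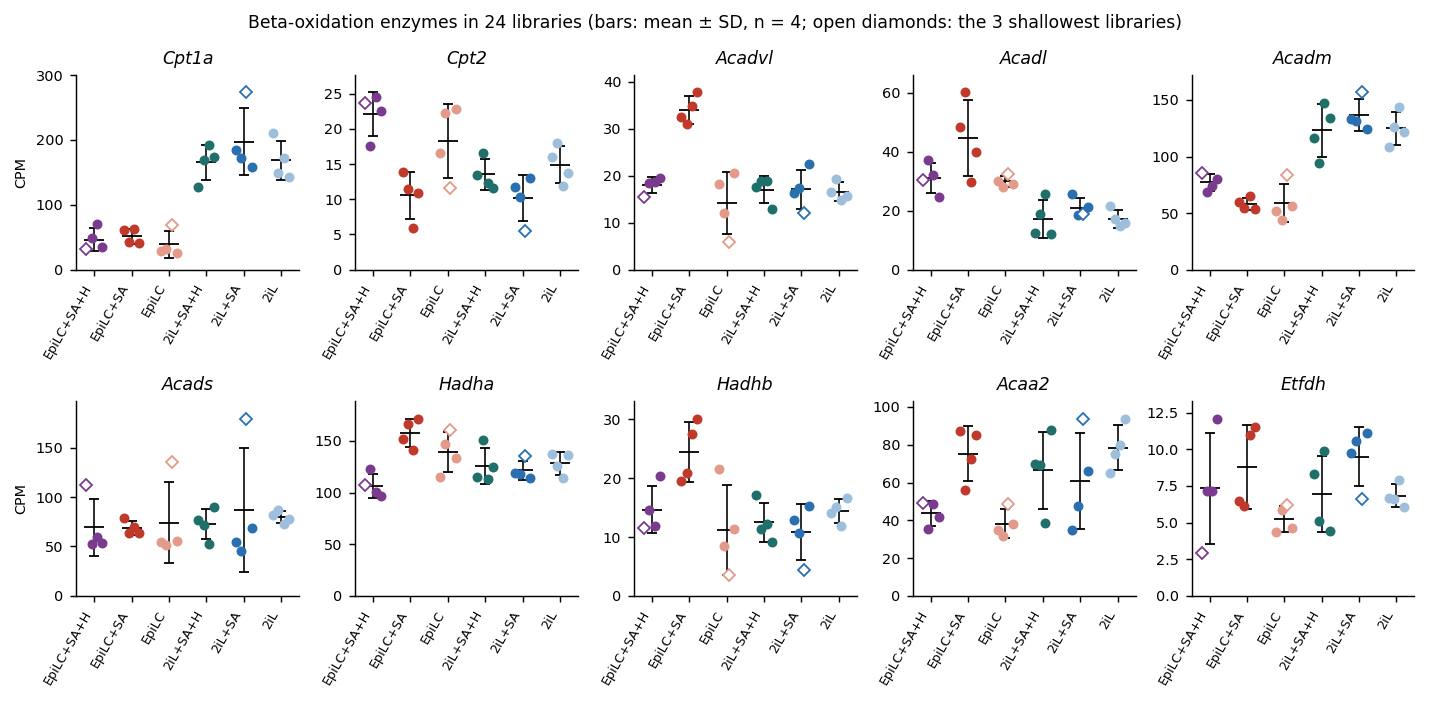
CPM of the 10 enzymes in each library (points), with the mean and SD of the 4 libraries of a group as bars; open diamonds are the 3 shallowest libraries. Acadvl stood at 31.0 to 37.7 CPM in EpiLC+SA, above every other library of the series, and Cpt1a at 127 to 273 CPM in the 3 groups in 2iL, above all libraries in EpiLC medium.

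The carnitine shuttle comes first. Cpt1a (chr19:3322334-3385733, GRCm38, plus strand) encodes carnitine palmitoyltransferase 1A of the outer mitochondrial membrane, which commits long-chain acyl groups to entry and is the step that malonyl-CoA inhibits. In replicates 1 to 4, the order used throughout, it had 31.5, 48.3, 71.1 and 34.8 CPM in EpiLC+SA+H and 60.4, 42.1, 62.5 and 40.3 CPM in EpiLC+SA, against 28.2, 32.2, 69.3 and 26.3 CPM in EpiLC. It had 127, 169, 192 and 174 CPM in 2iL+SA+H and 185, 173, 273 and 158 CPM in 2iL+SA, against 210.0, 149, 172 and 143 CPM in 2iL. Every library in EpiLC medium lay below every library in 2iL. In EpiLC against 2iL the log2 fold change was -2.14 (SE 0.29, edgeR adjusted p = 2.74e-06), with SA on both sides -1.94 (SE 0.28, edgeR adjusted p = 6.99e-06), and with SA and hemin on both sides -1.82 (SE 0.28, edgeR adjusted p = 2.84e-05). Within EpiLC medium Cpt1a did not pass the test with SA, at 0.42 (SE 0.28, edgeR adjusted p = 0.27). The shallow EpiLC library, at 69.3 CPM, was the highest of its group, and the other 3 EpiLC libraries (26.3 to 32.2 CPM) all lay below the 4 EpiLC+SA libraries (40.3 to 62.5 CPM). Without the 3 shallow libraries the value was 0.83 (adjusted p = 0.00405), and without EpiLC replicate 3 alone 0.80 (adjusted p = 0.0219), both with edgeR.

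Cpt2 (chr4:107903981-107923610, minus strand) encodes carnitine palmitoyltransferase 2 of the inner membrane, which turns the carnitine ester back into acyl-CoA. It had 23.7, 17.6, 24.5 and 22.6 CPM in EpiLC+SA+H and 13.9, 11.5, 5.91 and 10.8 CPM in EpiLC+SA, against 16.6, 22.2, 11.6 and 22.8 CPM in EpiLC. The 4 EpiLC+SA libraries were the lowest of the 12 in EpiLC medium, apart from EpiLC replicate 3. Cpt2 was lower in EpiLC+SA against EpiLC, with a log2 fold change of -0.81 (SE 0.27, edgeR adjusted p = 0.0257), and higher in EpiLC+SA+H against EpiLC+SA, at 1.06 (SE 0.27, edgeR adjusted p = 0.00693), where the groups did not overlap. The fall with SA lost its call without any 1 of EpiLC replicates 2 and 4 and EpiLC+SA replicates 3 and 4 (adjusted p 0.0526 to 0.0916), and when only those groups were fitted (adjusted p = 0.0733, edgeR). The rise with hemin kept its call in the 8 runs that left out 1 library of its own groups (adjusted p 0.00351 to 0.0269), by edgeR, and with only its groups fitted. Naive cells had 13.5, 16.6, 12.4 and 11.7 CPM in 2iL+SA+H and 11.8, 10.4, 5.50 and 13.0 CPM in 2iL+SA, against 16.0, 18.1, 11.9 and 13.8 CPM in 2iL for Cpt2, and these groups overlapped. The change in 2iL+SA against 2iL was -0.51 (95% interval -1.05 to 0.04), and the SA effect was not shown to differ between the media (difference -0.30 (SE 0.38, edgeR adjusted p = 0.634)). Cpt2 was thus the 1 enzyme of the 10 called lower with SA and the 1 called higher with hemin.

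The acyl-CoA dehydrogenases catalyse the first oxidation and are named for the chain length they prefer. Acadvl (chr11:70010183-70015411, minus strand), the very-long-chain enzyme of the inner membrane, had 15.5, 18.4, 18.6 and 19.5 CPM in EpiLC+SA+H and 32.4, 31.0, 34.8 and 37.7 CPM in EpiLC+SA, against 18.2, 12.1, 5.81 and 20.6 CPM in EpiLC. All 4 EpiLC+SA libraries lay above the other 8 in that medium. It rose in EpiLC+SA against EpiLC by a log2 fold change of 1.22 (SE 0.25, edgeR adjusted p = 0.000818) and fell in EpiLC+SA+H against EpiLC+SA, at -0.91 (SE 0.25, edgeR adjusted p = 0.0136). The rise was 0.96 to 1.45 in the 8 runs that left out 1 library of its groups, shallow EpiLC replicate 3 among them (edgeR adjusted p 0.000409 to 0.00408). Naive cultures gave 17.5, 18.8, 18.8 and 12.9 CPM in 2iL+SA+H and 16.3, 17.4, 12.1 and 22.4 CPM in 2iL+SA, against 16.5, 19.4, 14.8 and 15.6 CPM in 2iL. These libraries covered one range, and 2iL+SA against 2iL gave 0.06 (SE 0.25, edgeR adjusted p = 0.949), with a 95% interval of -0.46 to 0.58. The SA effect was larger in EpiLC than in 2iL, by 1.16 (SE 0.36, edgeR adjusted p = 0.0307), a call that was lost without 1 of EpiLC+SA replicate 4, EpiLC replicate 2, 2iL+SA replicates 1 and 3 and 2iL replicate 2 (adjusted p 0.0528 to 0.0682), or with only those groups fitted (adjusted p = 0.0559, edgeR). The fall with hemin had an adjusted p of 0.0532 without EpiLC+SA replicate 4. EpiLC+SA against 2iL+SA gave 0.97 (SE 0.25, edgeR adjusted p = 0.00347). The 3' end of Acadvl overlaps Dvl2, a Wnt signalling gene on the other strand, by 2119 bases, and the strand setting of the count is not given in the sources used here, so reads of the pair may not be told apart there. Dvl2 moved likewise, by 1.04 in EpiLC+SA against EpiLC (SE 0.18, edgeR adjusted p = 0.000152) and by -0.72 with hemin (SE 0.18, edgeR adjusted p = 0.00671). Dvl2 averaged 172 CPM over the 24 libraries, against group means for Acadvl of 14.2 CPM in EpiLC to 34.0 CPM in EpiLC+SA. The part of Dvl2 reads in the Acadvl result was not tested.

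Acadl (chr1:66830839-66863277, minus strand), the long-chain enzyme, had 30.5, 37.2, 32.0 and 24.6 CPM in EpiLC+SA+H and 48.4, 60.2, 29.8 and 40.0 CPM in EpiLC+SA, against 30.0, 28.1, 32.5 and 29.1 CPM in EpiLC. Its naive values were 12.5, 18.8, 25.7 and 12.1 CPM in 2iL+SA+H and 25.7, 18.5, 18.7 and 21.1 CPM in 2iL+SA, against 21.7, 17.0, 14.8 and 15.8 CPM in 2iL. The 4 EpiLC libraries (28.1 to 32.5 CPM) were all above the 4 in 2iL (14.8 to 21.7 CPM). Acadl was higher in EpiLC against 2iL, at 0.78 (SE 0.24, edgeR adjusted p = 0.0141), and with SA on both sides, at 1.08 (SE 0.24, edgeR adjusted p = 0.000793). With SA and hemin on both sides it was higher too, at 0.84 (SE 0.24, edgeR adjusted p = 0.0116). The first of these stood at an adjusted p of 0.0513 without 2iL replicate 3, and the last at 0.0507 to 0.0537 without 1 of EpiLC+SA+H replicate 2 and 2iL+SA+H replicates 1 and 4. With SA in EpiLC medium the value was 0.58 (SE 0.23, edgeR adjusted p = 0.0646), past the threshold, among the settings run, only without EpiLC+SA replicate 3 (0.72, adjusted p = 0.0279, edgeR). Acadl was the 1 dehydrogenase of the 4 that was higher in EpiLC medium in all 3 treatments.

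Acadm (chr3:153922357-153944632, minus strand), the medium-chain enzyme, went the other way. It had 85.2, 68.8, 74.2 and 80.0 CPM in EpiLC+SA+H and 59.4, 54.4, 64.8 and 53.6 CPM in EpiLC+SA, against 51.9, 43.6, 83.2 and 56.6 CPM in EpiLC. The naive groups had 116, 94.1, 147 and 134 CPM in 2iL+SA+H and 133, 132, 157 and 125 CPM in 2iL+SA, against 108, 126, 143 and 122 CPM in 2iL. Every library in EpiLC medium lay below every library in 2iL. Acadm was lower in EpiLC against 2iL, at -1.09 (SE 0.18, edgeR adjusted p = 4.54e-05), and with SA on both sides, at -1.23 (SE 0.18, edgeR adjusted p = 7.59e-06). With SA and hemin on both sides it was also lower, at -0.68 (SE 0.18, edgeR adjusted p = 0.00708). SA made no detectable difference to it in either medium, at -0.01 in EpiLC (95% interval -0.38 to 0.36) and 0.13 in 2iL (-0.24 to 0.49). Its 4 EpiLC+SA+H libraries lay above the 4 EpiLC+SA libraries, a difference of 0.41 (SE 0.18, edgeR adjusted p = 0.123) that missed the threshold.

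Acads (chr5:115110299-115119346, minus strand), the short-chain enzyme, ranged over 52.8 to 112 CPM in EpiLC+SA+H, 63.4 to 78.5 CPM in EpiLC+SA and 51.4 to 135 CPM in EpiLC, and over 52.6 to 89.6 CPM in 2iL+SA+H, 45.1 to 179 CPM in 2iL+SA and 73.1 to 87.2 CPM in 2iL. The top of 3 of these ranges is a shallow library. It was called in none of the 11 comparisons. Without the shallow libraries EpiLC against 2iL gave -0.57 (edgeR adjusted p = 0.00748), against -0.12 (adjusted p = 0.823) with them. With SA in EpiLC medium the value was -0.09 (adjusted p = 0.873) with them and 0.35 (adjusted p = 0.093) without them, both by edgeR, so no direction with SA is given for this gene.

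The trifunctional protein carries out the steps between the dehydrogenases and the end product for long chains. Hadha (chr5:30118304-30155162, minus strand), its hydratase and 3-hydroxyacyl-CoA dehydrogenase subunit, had 107, 123, 100.1 and 96.6 CPM in EpiLC+SA+H and 152, 166, 141 and 172 CPM in EpiLC+SA, against 115, 147, 161 and 134 CPM in EpiLC. The 4 EpiLC+SA+H libraries lay below the 4 EpiLC+SA libraries. With hemin Hadha fell, at -0.56 (SE 0.15, edgeR adjusted p = 0.00894), a call that was lost without EpiLC+SA replicate 4 (adjusted p = 0.0511). With SA alone the change in EpiLC medium was 0.18 (SE 0.15, edgeR adjusted p = 0.374). Hadha had 115, 150.4, 113 and 125 CPM in 2iL+SA+H and 119, 117, 135 and 114 CPM in 2iL+SA, against 137, 125, 114 and 136 CPM in 2iL, and these groups overlapped. EpiLC+SA against 2iL+SA gave 0.38 (SE 0.15, edgeR adjusted p = 0.0434), a call that was lost without 1 of EpiLC+SA replicates 1, 2 and 4 and 2iL+SA replicates 1, 2 and 4 (adjusted p 0.0774 to 0.139), with DESeq2's size factors (0.0626), with no filter on low counts (0.104) and with only those groups fitted (0.0988). The 3' end of Hadha overlaps Garem2 on the other strand by 75 bases. Garem2 was not among the genes counted under that symbol, so no value is given for it.

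Hadhb (chr5:30155248-30184593, plus strand), the thiolase subunit, had 11.6, 14.7, 11.9 and 20.3 CPM in EpiLC+SA+H and 19.6, 20.8, 27.4 and 30.1 CPM in EpiLC+SA, against 21.6, 8.42, 3.48 and 11.3 CPM in EpiLC. EpiLC replicate 1, at 21.6 CPM, lay within the EpiLC+SA range, and the other 3 EpiLC libraries lay below it. Hadhb rose in EpiLC+SA against EpiLC by 1.08 (SE 0.35, edgeR adjusted p = 0.0224). Without the shallow EpiLC replicate 3 the rise was 0.79 (edgeR adjusted p = 0.0685), and it also missed the threshold without EpiLC replicate 2 (0.0657) or EpiLC+SA replicate 4 (0.0684), or when only those groups were fitted (0.0589). Among naive libraries it had 17.2, 11.3, 12.3 and 9.24 CPM in 2iL+SA+H and 13.0, 10.8, 4.40 and 15.3 CPM in 2iL+SA, against 14.1, 15.1, 11.9 and 16.6 CPM in 2iL. These overlapped, and 2iL+SA against 2iL gave -0.35 (SE 0.35, edgeR adjusted p = 0.725). The difference between the SA effects in EpiLC and in 2iL was 1.43 (SE 0.49, edgeR adjusted p = 0.0514), which missed the threshold. It passed under DESeq2 (adjusted p = 0.0222), and in edgeR with DESeq2's size factors (0.0458), a minimum count of 10 (0.0448) or a replicate block (0.0255). Of the 16 edgeR runs that left out 1 library, only 3 passed (adjusted p 0.00688 to 0.102 over all 16). EpiLC+SA against 2iL+SA gave 1.11 (SE 0.35, edgeR adjusted p = 0.0138). Although the Hadha and Hadhb starts lie side by side, as the window printed above shows, the Pearson r of their log2 CPM over the 24 libraries was -0.03, and -0.57 after removing group means, across libraries that differ in depth. Between Hadhb and Acadvl it was higher (r = 0.87, and 0.84 after removing group means), and the shallow libraries were low for both in EpiLC and 2iL+SA.

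Acaa2 (chr18, GRCm38, plus strand) encodes the mitochondrial thiolase for the chains that the trifunctional protein leaves, and releases acetyl-CoA. It had 49.4, 35.4, 48.6 and 41.6 CPM in EpiLC+SA+H and 87.4, 55.9, 72.2 and 85.2 CPM in EpiLC+SA, against 34.8, 31.5, 48.8 and 37.9 CPM in EpiLC. Every EpiLC+SA library lay above the 8 others in that medium. It rose in EpiLC+SA against EpiLC, at 0.98 (SE 0.26, edgeR adjusted p = 0.00539), and fell with hemin, at -0.79 (SE 0.25, edgeR adjusted p = 0.0331). The naive libraries held 69.9, 69.5, 38.7 and 88.0 CPM in 2iL+SA+H and 35.1, 47.4, 93.5 and 66.3 CPM in 2iL+SA, against 64.8, 75.3, 80.0 and 93.8 CPM in 2iL, a wide spread in which the groups overlapped. Acaa2 was lower in EpiLC against 2iL, at -1.04 (SE 0.25, edgeR adjusted p = 0.00287), and did not pass the test in EpiLC+SA against 2iL+SA, at 0.33 (SE 0.25, edgeR adjusted p = 0.311), or 0.59 (adjusted p = 0.0335) without the shallow libraries. The SA effect differed between the media by 1.38 (SE 0.36, edgeR adjusted p = 0.0118), which stayed past the threshold in all 16 runs that left out 1 library (adjusted p 0.00204 to 0.0322). The fall with hemin was lost without 1 of EpiLC+SA+H replicates 2 and 4 and EpiLC+SA replicates 1, 3 and 4 (adjusted p 0.0709 to 0.119). So Acaa2 was the 1 enzyme of the 10 called both lower in EpiLC than in 2iL and higher with SA in EpiLC. Both comparisons use the same EpiLC libraries and are not independent.

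Etfdh (chr3:79603788-79629500, minus strand) encodes the oxidoreductase that passes electrons from the dehydrogenases to ubiquinone. It was counted thinly, with 6 to 115 reads a library, at 2.90 to 12.1 CPM in EpiLC+SA+H, 6.17 to 11.5 CPM in EpiLC+SA and 4.35 to 6.19 CPM in EpiLC. In naive cells it stood at 4.42 to 9.88 CPM in 2iL+SA+H, 6.60 to 11.1 CPM in 2iL+SA and 6.05 to 7.93 CPM in 2iL. Etfdh was called in none of the 11 comparisons. In EpiLC+SA against EpiLC it stood at 0.76 (SE 0.34, edgeR adjusted p = 0.0938), and at 0.83 (edgeR adjusted p = 0.0444) without the shallow libraries.

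**Figure D2:**
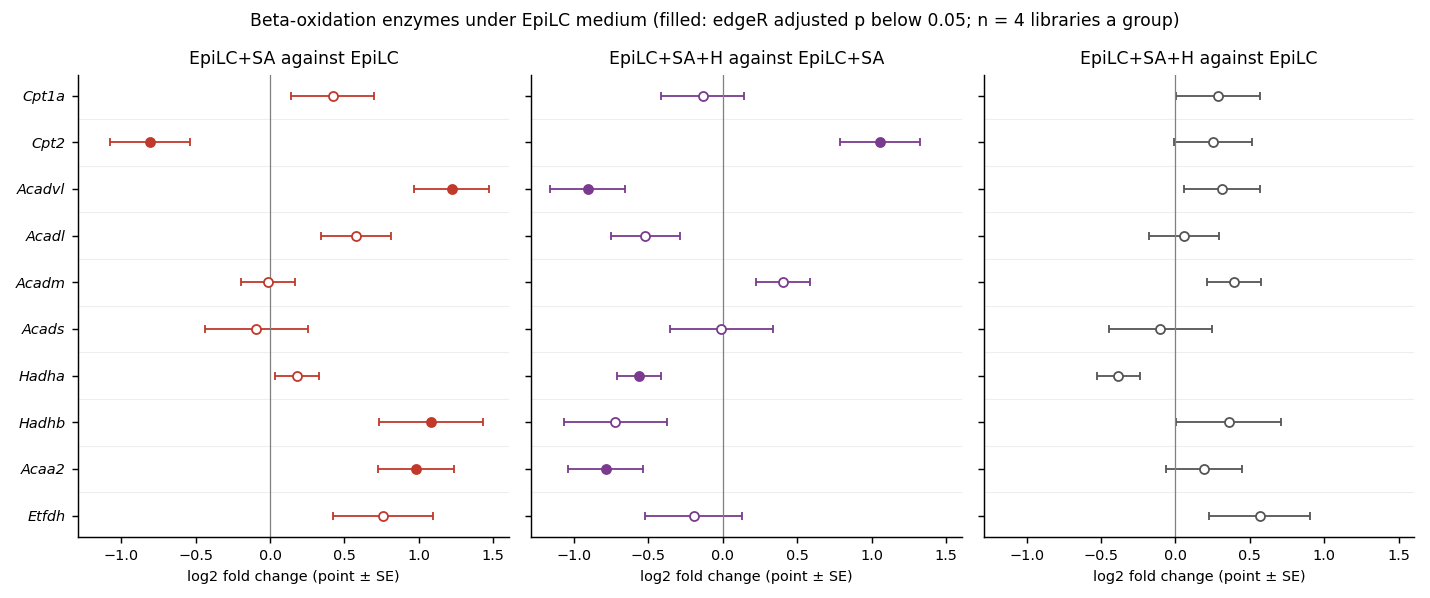
Log2 fold change of each enzyme in EpiLC medium (point, with its SE as bars) in EpiLC+SA against EpiLC, EpiLC+SA+H against EpiLC+SA and EpiLC+SA+H against EpiLC; filled points passed an edgeR adjusted p of 0.05. Acadvl, Hadhb and Acaa2 lie at 0.98 to 1.22 with SA, Cpt2 at -0.81, and no point is filled in the last panel.

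Across the 10 enzymes the median log2 fold change in EpiLC+SA against EpiLC was 0.50, with values from -0.81 to 1.22 and 7 of 10 above 0, beside a median of -0.00021 over all genes tested. With hemin added to SA the median was -0.36, from -0.91 to 1.06 with 2 of 10 above 0, beside 0.0054 over all genes. Cpt2 lay on the other side of 0 from Acadvl, Hadhb and Acaa2 in both comparisons. Summed over the 10, CPM was 405 to 469 in EpiLC+SA+H and 512 to 558 in EpiLC+SA, against 376 to 557 in EpiLC, where the top value is shallow replicate 3 and the others were 376 to 398. The sum weighs genes by their counts.

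With SA and hemin together none of the enzymes was called. In EpiLC+SA+H against EpiLC edgeR called 0 of 10, as did DESeq2, and 2 (Acadm and Hadha) had an unadjusted p under 0.05. Of all genes only 0.0436% were called higher and 0.0187% lower. The median over the enzymes was 0.27, with 8 of 10 above 0, beside 0.020 over all genes. The values ran from -0.38 for Hadha (95% interval -0.69 to -0.08) to 0.57 for Etfdh (-0.13 to 1.26). For Acadvl the interval was -0.21 to 0.84, for Acaa2 -0.33 to 0.72 and for Cpt2 -0.28 to 0.79.

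In naive cells none of the enzymes was called. In 2iL+SA against 2iL edgeR and DESeq2 each called 0 of 10 and 0 had an unadjusted p under 0.05, where 0.0249% of all genes were called higher and 0.0249% lower by edgeR. The largest values were -0.51 for Cpt2 and 0.51 for Etfdh (-0.16 to 1.17). In 2iL+SA+H against 2iL+SA 0 of 10 were called by either tool, with 0 at an unadjusted p under 0.05 and 0% of all genes called in either direction by edgeR. In 2iL+SA+H against 2iL 0 of 10 were called, again with 0 unadjusted and 0 by DESeq2, beside 0% of all genes higher and 0.00622% lower. Intervals for single enzymes in 2iL+SA against 2iL reached 1.17 (Etfdh) and -1.07 (Hadhb), so changes up to those sizes are not excluded.

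Tests of the difference between the media separate Acadvl, with the limit on Dvl2 reads given above, and Acaa2. The SA effect in EpiLC exceeded that in 2iL for these 2 of 10, where 5.27% of all genes were called higher and 9.07% lower, and 3 had an unadjusted p under 0.05. For the effect of hemin on top of SA, 0 of 10 were called by edgeR, where 4.57% were called higher and 1.76% lower. Of the 10, 4 had an unadjusted p under 0.05, and DESeq2 called 1, Hadha (-0.62 and edgeR adjusted p = 0.0737; DESeq2 -0.58, adjusted p = 0.0438). Without the shallow libraries edgeR called 3 lower there, Acaa2 (-1.25), Acads (-0.69) and Hadha (-0.65), and Acads had the other sign with them. In that fit 811 of all genes were called lower, against 283 with the shallow libraries.

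**Figure D3:**
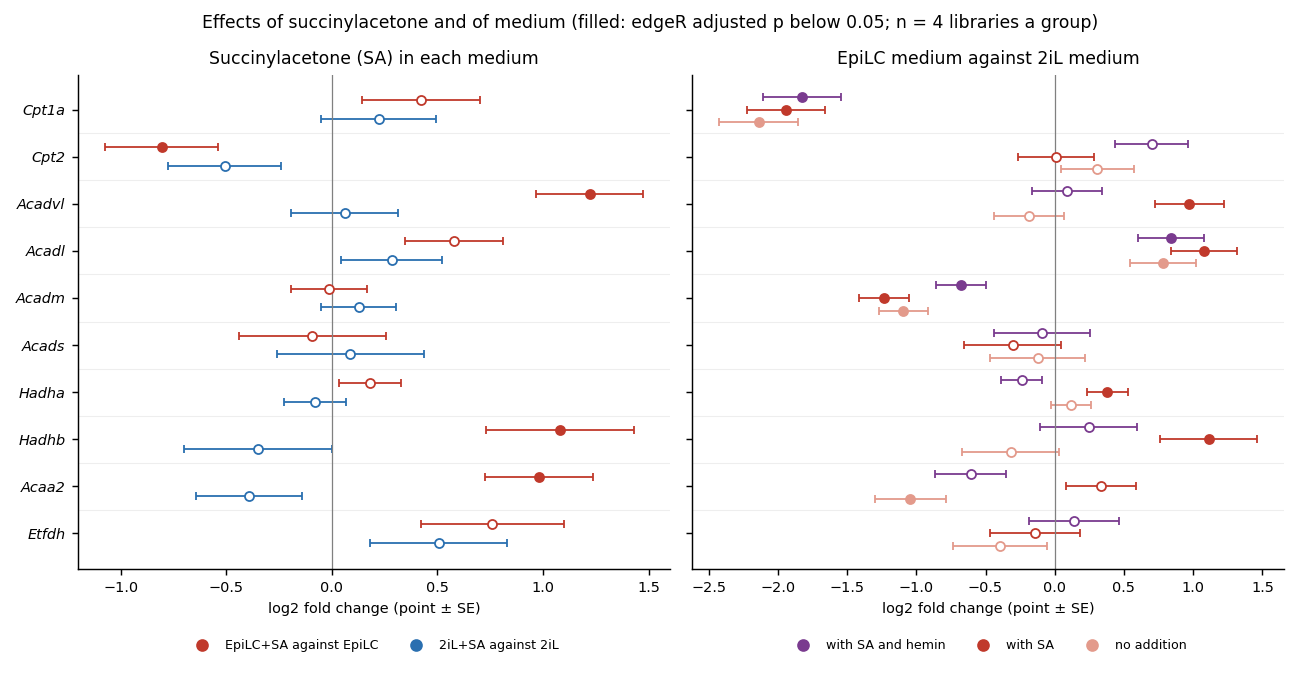
Left, log2 fold change with SA in EpiLC medium and in 2iL; right, EpiLC medium against 2iL with SA and hemin, with SA, and with no addition. Points are estimates, bars their SE and filled points passed an edgeR adjusted p of 0.05; all naive points on the left are open, and Cpt1a and Acadm on the right lie below 0 in every treatment.

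Between the media, Cpt1a and Acadm were lower in EpiLC medium under every treatment. In EpiLC against 2iL the median over the enzymes was -0.25, beside 0.0044 over all genes, with Cpt1a at -2.14, Acadm at -1.09, Acaa2 at -1.04 and Acadl at 0.78. With SA on both sides, 4 of 10 were higher (Acadvl, Acadl, Hadha and Hadhb) and 2 lower (Cpt1a and Acadm), where 16.8% and 21% of all genes were called. With SA and hemin on both sides, 1 was higher (Acadl) and 2 lower (Cpt1a and Acadm), where 10.2% and 10.5% of all genes were called. Cpt2 missed the threshold there, at 0.70 (SE 0.26, edgeR adjusted p = 0.0593), and passed it under 6 other settings (0.67 to 0.74, adjusted p 0.0151 to 0.0434). It missed the threshold in all 8 runs that left out 1 library of those groups (edgeR adjusted p 0.055 to 0.146). Over the 24 libraries the log2 CPM of Cpt1a and Acadm went together (r = 0.90, and 0.45 after removing group means), as a description of libraries in 2 media.

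Further genes of the pathway were counted in 6 lists, whose counts are a description beside the shares over all genes given above. Of 17 tested genes for other mitochondrial steps, 5 rose and 0 fell in EpiLC+SA against EpiLC (median 0.47), and 0 rose and 3 fell with hemin. Those with the smallest adjusted p were Acadsb, the dehydrogenase of branched short chains (1.51 (SE 0.22, edgeR adjusted p = 1.56e-05)), Hsd17b10, a mitochondrial hydroxyacyl-CoA dehydrogenase (0.89 (SE 0.18, edgeR adjusted p = 0.000611)), and Acad11, a further acyl-CoA dehydrogenase (1.44 (SE 0.38, edgeR adjusted p = 0.00553)). Of 13 peroxisomal genes tested, which handle very long and branched chains, 6 rose and 0 fell with SA (median 0.66), among them Scp2, a thiolase and lipid carrier (1.01 (SE 0.24, edgeR adjusted p = 0.00292)), and Acox3, an acyl-CoA oxidase (1.52 (SE 0.40, edgeR adjusted p = 0.00599)). With hemin 0 of these 13 rose and 3 fell, and in EpiLC against 2iL 1 was higher and 6 lower.

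Of 11 other carnitine and activation genes tested, 1 rose, 1 fell and 9 did not pass the test with SA in EpiLC medium (median 0.06). The 1 that rose was Slc25a20, which exchanges acylcarnitine for carnitine across the inner membrane between Cpt1a and Cpt2 (1.64 (SE 0.31, edgeR adjusted p = 0.000278)). Its level was 19.6 ± 6.61 CPM in EpiLC+SA+H and 37.3 ± 8.41 CPM in EpiLC+SA, against 11.5 ± 5.51 CPM in EpiLC (SD, n = 4 each). The gene that fell was Slc27a2, a transporter that activates very long chains (-2.20 (SE 0.41, edgeR adjusted p = 0.000267)). Slc25a20 was also lower in EpiLC against 2iL, at -2.41 (SE 0.31, edgeR adjusted p = 1.45e-06), so it changed with the medium in the same direction as Cpt1a and, with SA, in the direction of Acadvl. Of 14 genes of malonyl-CoA and fatty acid synthesis, 1 rose and 4 fell with SA, and 5 rose and 0 fell with hemin. Named by the smallest adjusted p with SA, these were Elovl6, a chain elongase (-0.93 (SE 0.23, edgeR adjusted p = 0.00378)), Acly, which makes cytosolic acetyl-CoA from citrate (0.66 (SE 0.17, edgeR adjusted p = 0.00422)), and Mcat, of mitochondrial fatty acid synthesis (-1.06 (SE 0.29, edgeR adjusted p = 0.00759)).

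Of 10 tested ketone body genes and PPAR targets, 3 rose and 1 fell with SA (median 0.52). Among those that rose were Fabp3, a fatty acid binding protein (2.95 (SE 0.37, edgeR adjusted p = 2.78e-06)), and Bdh1, which interconverts ketone bodies (1.05 (SE 0.21, edgeR adjusted p = 0.000614)). Fabp3 averaged 46.0 ± 24.8 CPM in EpiLC+SA+H and 148 ± 34.4 CPM in EpiLC+SA, against 19.6 ± 10.8 CPM in EpiLC (SD, n = 4 each). With hemin 1 of the 10 rose and 4 fell. Of 14 regulators tested, 2 rose and 2 fell with SA, among them Rxrb, a partner of PPAR proteins (-1.24 (SE 0.19, edgeR adjusted p = 3.78e-05)), Esrrb, an estrogen-related receptor that also counts among the naive markers (1.21 (SE 0.36, edgeR adjusted p = 0.0148)), and Nrf1, a regulator of respiratory genes (-0.67 (SE 0.20, edgeR adjusted p = 0.015)). In EpiLC against 2iL 1 regulator was higher, Rxrb (0.80 (SE 0.19, edgeR adjusted p = 0.00235)), and 3 lower, among them Esrrb (-2.72 (SE 0.38, edgeR adjusted p = 5.64e-06)) and Prkaa2, a catalytic subunit of AMPK (-1.05 (SE 0.30, edgeR adjusted p = 0.00937)). In the 3 naive comparisons 0 genes of the 6 lists were called by edgeR.

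**Figure D4:**
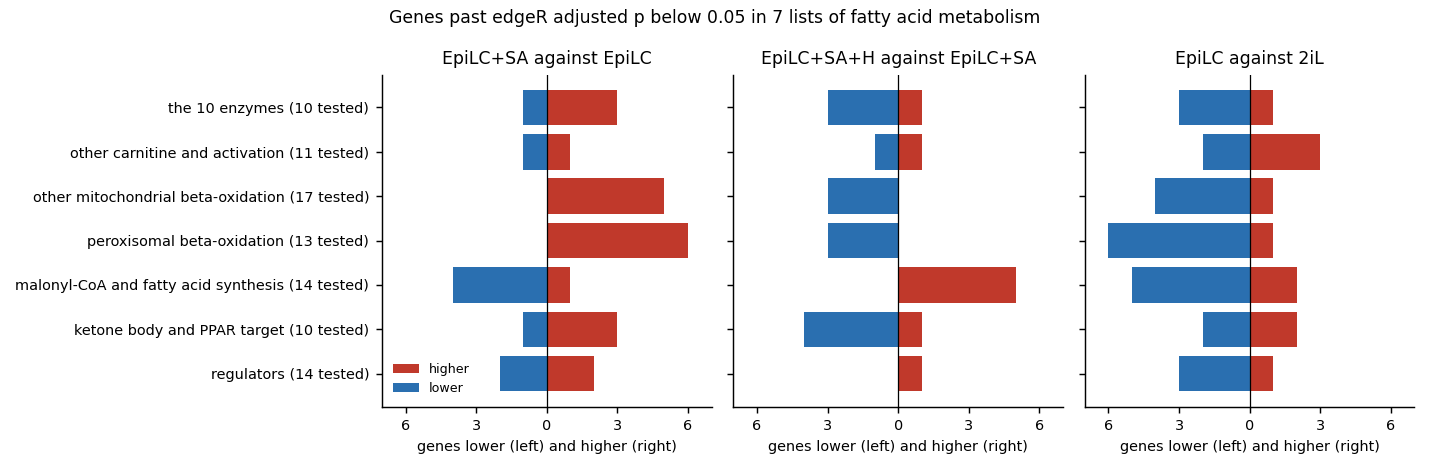
Genes called lower (left of 0) and higher (right of 0) by edgeR at an adjusted p under 0.05 among the 10 enzymes and 6 lists of the same metabolism, for EpiLC+SA against EpiLC, EpiLC+SA+H against EpiLC+SA and EpiLC against 2iL. With SA the peroxisomal list has 6 higher and 0 lower, and the synthesis list has 1 higher and 4 lower with SA and 5 higher and 0 lower with hemin.

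Over the 24 libraries, log2 CPM of genes other than the 10 enzymes was compared with the enzymes' mean. Of those with a mean of at least 20 CPM, the closest were Parvb (Pearson r = 0.90), Laptm5 (0.87), Sec14l1 (0.87), Tcl1 (0.86) and Gpx1 (0.86). In EpiLC+SA against EpiLC their log2 fold changes were 2.32, 2.02, 1.33, 2.41 and 1.05, and in EpiLC against 2iL they were -2.23, -1.72, -1.50, -2.98 and -0.997. Among the enzymes themselves r ran from -0.75 (Acadl and Acadm) to 0.90 (Cpt1a and Acadm), so their mean is not a profile that all 10 share. The libraries share media and depth, both comparisons use the EpiLC libraries, and the values are a description.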

How the data were processed

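RNA of 24 mESC libraries was prepared by the authors with a 3' mRNA kit (QuantSeq), sequenced as 50 bp single reads, filtered for adapters, checked with FastQC 0.11.7, aligned to mm10 with HISAT2 (SAMtools 1.5) and counted with HTSeq 2.7.14, multi-mapping reads being discarded. The annotation and the strand setting are not given in the sources used here. The deposited values are raw counts for each gene symbol, in 1 column per library. Totals were 1857964 to 9069538 counts. From these counts, genes were filtered with filterByExpr (minimum count 5), scaled by TMM and fitted in 1 quasi-likelihood model of 6 groups (edgeR 4.0.16, R 4.3.3), with Benjamini-Hochberg adjustment over 16067 genes. SE is the size of the log2 fold change divided by the square root of F. The authors used DESeq2, and version 1.42.0 was an alternative, beside size factors, no filter, a minimum count of 10, only the groups compared, a replicate block, no shallow libraries and each library left out. CPM uses TMM-scaled totals, and log2 CPM a prior count of 2. Gene positions are GENCODE vM21, matched by symbol. All 10 enzymes were named. Values per library are given for those called in any comparison, and up to 3 called genes per list with the smallest adjusted p, some of which are not reported here. The enzymes, lists and tests were chosen with earlier results of these data known.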

Additional observations from a re-analysis of the deposited data

Results flagged for a closer look

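Each enzyme was searched for outlying libraries in the 6 groups of 4 (60 groups of values), where chance marks about 1 in 20. Acads stood out in 2, at 111.84 CPM in EpiLC+SA+H replicate 1, against 52.8 to 59.3 CPM in the other 3, and at 135.11 CPM in EpiLC replicate 3, against 51.4 to 55.3 CPM in the other 3. Both are shallow libraries. The SA effect differed between the media for Acaa2, by 1.38 on the log2 scale, and for Acadvl, by 1.16, with edgeR adjusted p of 0.0118 and 0.0307. For Acaa2 SA gave 0.98 in EpiLC medium and -0.39 in 2iL, and for Acadvl 1.22 and 0.06.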

How the results depend on the processing

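Of 361 recomputed values of enzymes called in the report, 326 stayed called in the same direction, 35 missed the threshold and 0 changed sign. Of 1449 values not called in the report, 94 changed sign, of which 2 (both Acads) were then called, and 25 became called in the same direction. Without the 3 shallow libraries, EpiLC+SA against EpiLC had 5 enzymes higher, where 2448 of all genes were called higher, against 1942 with those libraries. Without them the hemin effect also differed between media for 3. Acads then changed sign with SA in EpiLC medium (0.35), in the SA difference between media (0.86, edgeR adjusted p = 0.0104) and in the hemin difference (-0.69). In EpiLC+SA+H against 2iL+SA+H 2 were higher instead of 1 under DESeq2, size factors, a minimum count of 10, the replicate block, only the groups compared and without the shallow libraries. Only the groups compared gave 0 lower with SA in EpiLC medium and 1 higher in the SA difference, and DESeq2 gave 1 lower in the hemin difference. The cause was not tested.

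Leaving out 1 library gave 0 to 1 lower in EpiLC+SA against EpiLC, 0 to 3 lower with hemin, 0 to 1 higher in EpiLC against 2iL and in EpiLC+SA+H against 2iL+SA+H, 1 to 3 higher in the SA difference and 0 to 1 lower in the hemin difference. The library behind 0 lower with hemin is EpiLC+SA replicate 4, where Acadvl, Hadha and Acaa2 stood at adjusted p of 0.0532, 0.0511 and 0.119. Acads ranged from -0.56 to 0.016 in EpiLC against 2iL, from -0.25 to 0.32 with SA in EpiLC medium, from -0.44 to 0.42 in the SA difference and from -0.36 to 0.47 in the hemin difference. Libraries with the same number had correlated deviations of r = 0.0601, 0.154, 0.162 and 0.119 in EpiLC+SA and EpiLC (4 of 4 best with their own number) and 0.309, 0.124, -0.069 and 0.238 in 2iL+SA and 2iL (3 of 4). In each set 1 number was under 0.1, and the numbers were not taken as pairs in the main fit. The sources used here do not say whether libraries of the same number were made together. With the replicate block, Hadhb passed the threshold in the SA difference (1.62, edgeR adjusted p = 0.0255), Acads stood at 0.0068 there, and Cpt2 passed in EpiLC+SA+H against 2iL+SA+H.

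Counts over all genes moved by over 1.5 times in 7 comparisons. 2iL+SA against 2iL had 4 genes higher and 4 lower with edgeR, and 207 and 111 with DESeq2, 50 and 55 without the shallow libraries, and 26 and 13 with the replicate block. EpiLC+SA+H against EpiLC had 7 and 3, and 64 and 65 with DESeq2, 112 and 98 without the shallow libraries, and 0 and 0 with the replicate block. Leaving out 1 library gave 0 to 8 and 0 to 2 in the first of these, and 0 to 32 and 0 to 13 in the other. 2iL+SA+H against 2iL+SA had 0 and 0, and 1 and 28 without 2iL+SA+H replicate 3, and 2iL+SA+H against 2iL had 0 and 1, and 2 and 4 with DESeq2. The hemin difference had 734 and 283, 1181 and 516 with DESeq2, and 1272 and 811 without the shallow libraries. Its lower count was 137 to 184 without 1 of EpiLC+SA replicates 3 and 4, 2iL+SA replicate 2 and 2iL+SA+H replicates 1, 2 and 4. EpiLC+SA+H against EpiLC+SA had 956 lower, 1561 without the shallow libraries, and 551 and 550 without EpiLC+SA replicate 3 and replicate 4. The SA difference had 847 higher, and 552 without 2iL replicate 2 and 540 without EpiLC+SA replicate 4. Etfdh, Hadhb and Cpt2 had as few as 6, 8 and 10 reads in a library.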
